A study of Homo sapiens with 20 samples.

Results

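The genes described here are the IL-6 and LIF cytokine axis of MDA-MB-468 cells: the ligands IL6, LIF and IL11, the receptor chains IL6R, IL6ST, LIFR and OSMR, the transcription factor STAT3 and its feedback inhibitor SOCS3. They were picked by gene symbol, and all 9 were found among the 60271 genes in the deposited count tables. Earlier results of these data were known when the members and the gene lists below were chosen. Their counts of calls beside the shares of all genes are therefore descriptions only. MDA-MB-468 is an established triple negative breast cancer cell line with a high level of the EGF receptor. The study's methods describe 24 h in serum-free medium before EGF. Control cells stayed untreated, and the other groups received EGF at 50 ng/mL over 12, 24, 48 or 72 h. The study asked how gene expression changes during an epithelial-mesenchymal transition induced by EGF. Each of the 5 groups had 4 biological replicates. Per the labels all groups were handled side by side from seeding to harvest and differed in when EGF was added. The time without serum before EGF may then have differed between groups, and its part cannot be told apart from that of the time in EGF. The line was not authenticated after delivery, according to the study's methods.

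Cytokines of the IL-6 family act through receptor complexes that share the signal-transducing chain gp130, the product of IL6ST. IL-6 and IL-11 first bind their own alpha receptors, LIF signals through a pair of LIFR and gp130, and oncostatin M can use gp130 with either LIFR or OSMR. Bound receptors activate Janus kinases, which phosphorylate STAT3, and the STAT3 target SOCS3 in turn binds gp130 and shuts the signal down. In epithelial and breast cancer cells the pathway is known for acute-phase gene expression, growth control and inflammatory signalling. What was measured here is RNA, and neither secreted cytokine nor phosphorylated STAT3 was analysed.

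Library depth ranged from 15611961 to 25856953 counts, and mitochondrial transcripts took 7.69% to 16.9% of them. Of all genes, 33535 had at least 1 count and 16522 passed the low-count filter and were tested. Levels are given as CPM, counts scaled to a common library size after TMM normalization. EGFR and keratin transcripts marked the cells as epithelial in every library. Of 3 receptors low in triple negative tumours, PGR had no counts, ESR1 read 1.91 to 6.53 CPM and ERBB2 7.79 to 24.6 CPM. The leukocyte marker PTPRC stayed at or below 0.304 CPM. CD68, a macrophage marker that other cells also use, went from a mean of 1.15 CPM in control to 26.7 CPM at 72 h, and the summed 7 leukocyte markers from 7.23 to 9.80 CPM in control and from 36.8 to 44.2 CPM at 72 h. The fibroblast markers were near 0 apart from COL1A1, with means of 6.18 CPM in control and 13.9 CPM at 72 h. The part of these markers in the results below was not tested.

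EGF 24 h replicate 1 was the lowest 24 h library for LIF and OSMR. Over all genes it lay within the range of the other libraries. The genes most like LIF and OSMR were also low there. They were picked by correlation over all libraries, this one included, so they are no separate support. This library lay beyond the limit of Dixon's test in its group for 2.12% of tested genes. That was the largest share at 24 h, where the other replicates had 1.13% to 1.63%. The other 19 libraries ran from 0.478% to 2.46%. LIF read 15.8 CPM there and 47.1 to 55.1 CPM in replicates 2 to 4, and ERRFI1, an inhibitor of the EGF receptor, read 381.1 CPM against 614.7 to 733.1 CPM. For LIF, OSMR and the counts of members called, results at 24 h are therefore also given without this library.

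Below, a gene is called higher or lower where the adjusted p of edgeR's quasi-likelihood test was under 0.05. At 12 h of EGF, 8 of the 9 members could be tested and all 8 were higher than in control, in a comparison in which 69.4% of all tested genes were called and 32.9% were called higher. IL6 had too few counts for the test and is described by its counts. At 24 h, 5 of 8 were higher and none lower, beside 58.8% of all genes called and 29.2% called higher, and the count was the same without replicate 1. At 48 h, 4 were higher and 1 lower, beside 45.8% of all genes called, 24.0% higher and 21.8% lower. At 72 h, 4 were higher and 2 lower, beside 61.6% called, 30.6% higher and 31.0% lower. LIF, IL11, IL6R and OSMR were higher at all 4 times. IL6R and IL11 passed the low-count filter only through their EGF libraries, so a difference in these 2 genes was to some extent built into the filter. The median log2 fold change of the 8 members was 1.60, 1.03, 0.46 and 0.74 at 12, 24, 48 and 72 h, beside -0.05, -0.01, 0.01 and -0.01 over all tested genes. Without IL6R and IL11, the medians of the other 6 were 1.45, 0.34, 0.23 and 0.05, and 6, 3, 2 and 2 of them were higher and 0, 0, 1 and 2 lower, so that the values of all 8 at 24 and 72 h rest largely on these 2 genes. All 4 comparisons use the same 4 control libraries and are not independent of one another. Scaling by library size alone left 5 of the 8 called at 12 h, and moved the median of all genes by -0.28 on the log2 scale.

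**Figure D1:**
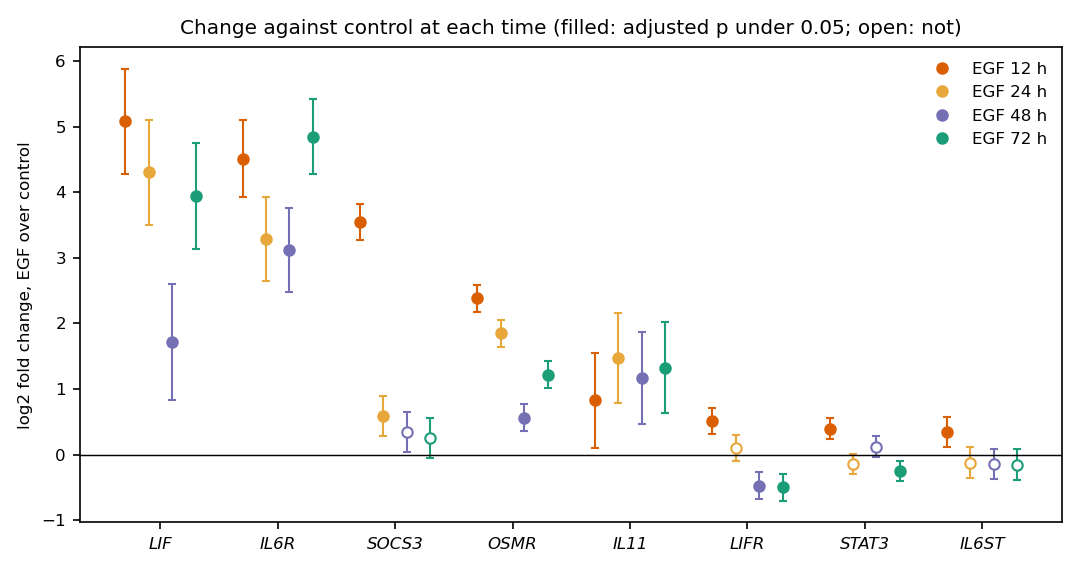
Log2 fold change of EGF over control (y axis) for the 8 tested members (x axis) at 12, 24, 48 and 72 h (colours). Bars are 95% confidence intervals computed from the F statistic of edgeR's test. Filled points have an adjusted p under 0.05 and open points do not. LIF fell from 5.08 at 12 h to 1.72 at 48 h and stood at 3.94 at 72 h, SOCS3 was at 3.55 at 12 h and at 0.59 at 24 h, and LIFR crossed from 0.51 at 12 h to -0.50 at 72 h.

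From one time to the next, the members called moved in the same direction between 12 and 24 h and in both directions at the later steps. Between 12 and 24 h, 7 of 8 fell and none rose, beside 53.7% of all genes called and 25.9% called lower. Between 24 and 48 h, LIF, OSMR and LIFR fell and STAT3 rose. These 4 of 8 were near the share of all genes (50.2% called, with 4272 of 16522 genes higher and 4020 lower). Between 48 and 72 h, LIF, OSMR and IL6R rose and STAT3 fell (35.7% of all genes called, with 2951 higher and 2955 lower). The members' counts for the steps that use 24 h stayed the same without EGF 24 h replicate 1.

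LIF, which encodes a ligand of the LIFR and gp130 pair, lies on chromosome 22 from 30240447 to 30246851 on the minus strand (GRCh38, GENCODE 29). The 4 control libraries held 1.86, 2.65, 1.58 and 2.31 CPM, from 37 to 63 counts each. At 12 h LIF read 80.2, 66.5, 69.2 and 69.9 CPM. EGF-treatment for 24 h gave 15.8, 48.6, 47.1 and 55.1 CPM. After 48 h the 4 values were 9.75, 5.48, 6.88 and 5.85 CPM, and after 72 h they were 42.9, 32.8, 21.1 and 32.4 CPM. Every EGF library was above every control, and LIF was high at 12 h, low at 48 h and high again at 72 h.

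LIF was upregulated 34.0-fold at 12 h, from 2.10 ± 0.474 to 71.4 ± 6.04 CPM (SD, n = 4), or 5.08 on the log2 scale (SE 0.378, adjusted p = 2.99e-09). The log2 fold change was 4.30 at 24 h (SE 0.378, adjusted p = 4.49e-08) and 4.58 (SE 0.224) without replicate 1. At 48 h it was 1.72 (SE 0.415, adjusted p = 0.00282) and at 72 h 3.94 (SE 0.379, adjusted p = 1.18e-07). The fall from 24 to 48 h was -2.58 on the log2 scale (adjusted p = 6.25e-06), and the following rise to 72 h was 2.22 (adjusted p = 5.38e-05).

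LIF at 12 and 24 h was separated less firmly. The log2 difference was -0.78 (SE 0.284, adjusted p = 0.0291), and no value at 24 h reached the lowest at 12 h. Leaving out EGF 12 h replicate 1 gave an adjusted p of 0.0687 and leaving out EGF 24 h replicate 1 gave 0.0227. The call was also lost under library size (adjusted p = 0.0614) or upper quartile scaling (0.0544), without the low-count filter (0.0514) and with only these 8 libraries in the fit (0.103). LIF at 72 h was also compared with 24 h, a comparison added after the values were seen. The difference was -0.36 (adjusted p = 0.348) over all libraries and -0.64 (adjusted p = 0.00748) without EGF 24 h replicate 1, so that 1 library decided this call.

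Messages of many cytokines carry AU-rich elements in the 3′ UTR, which proteins of the ZFP36 family bind to speed up decay. To show where such elements sit, the 30 bases of the 3′ UTR that hold the most ATTTA pentamers are printed for the 3 ligands and for OSMR, from the GENCODE 29 transcript sequences in the sense direction, with ATTTA in capitals. LIF held 7 ATTTA pentamers in 3204 bases of 3′ UTR, IL6 held 6 in 429 bases, IL11 held 9 in 1618 bases and OSMR held 8 in 2197 bases. The nonamer ATTTATTTA, which occurred in the 3′ UTR of 6.85% of 19099 genes, was found in IL11 and OSMR and in no other member. A match is a description of the letters and not of a working site.
LIF, chr22:30240522-30240551, minus strand: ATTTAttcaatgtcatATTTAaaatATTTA
IL6, chr7:22731697-22731726, plus strand: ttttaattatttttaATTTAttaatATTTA
IL11, chr19:55365951-55365980, minus strand: ttccaaagccagatcttATTTATTTATTTA
OSMR, chr5:38935434-38935463, plus strand: gggccagtattgtcagcATTTATTTATTTA

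IL6, on chromosome 7 from 22725884 to 22732002 on the plus strand, encodes the founding cytokine of the family and was at the edge of detection. Control libraries held 0, 1, 0 and 1 counts. At 12 h IL6 had 9, 5, 5 and 5 counts, and at 24 h it had 0, 0, 0 and 2. The 48 h libraries held 4, 2, 2 and 4 counts and the 72 h libraries 19, 7, 5 and 8. In the libraries with a count of 0, the level may be up to 0.128 to 0.192 CPM, depending on depth. All libraries at 12, 48 and 72 h were above all controls, while the 24 h libraries overlapped them. At 48 h this separation was 2 to 4 counts against 0 or 1. The lowest 48 h library, at 0.0760 CPM, lay under what the controls with 0 counts allow.

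Summed over 4 libraries, IL6 rose from 2 counts in control to 24 at 12 h and 39 at 72 h. The rate relative to control was 13.7 times at 12 h (95% exact interval 3.39 to 119.4), 6.07 times at 48 h (1.35 to 55.9) and 22.2 times at 72 h (5.76 to 190.1). At 24 h, 2 counts stood against 2, a ratio of 1.19 (0.0861 to 16.4). These intervals cover counting error only. A two-sided exact permutation test on CPM gave p = 0.0286 at 12, 48 and 72 h, the smallest value that 4 against 4 libraries allow, with 0.0381 after adjustment over the 4 times, and p = 1 at 24 h. Without the low-count filter, edgeR gave adjusted p = 0.00111 for the fall from 12 to 24 h, adjusted p = 0.0798 from 24 to 48 h and adjusted p = 0.0297 for the rise from 48 to 72 h. In length, 20.7% of the exon bases of IL6 lie under an antisense gene with at most 1 count in any library, and 2.22% under STEAP1B, also on the opposite strand, with 1 to 32 counts per library. Without a known strand setting, reads from STEAP1B in the shared bases cannot be told apart from IL6 reads.

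IL11, on chromosome 19 from 55364389 to 55370463 on the minus strand, encodes a cytokine that signals through IL11RA and gp130, and its counts were also low. Controls held 7, 6, 4 and 7 counts. After 12 h of EGF there were 14, 10, 5 and 9 counts, and after 24 h 13, 13, 14 and 17. The counts were 10, 16, 13 and 15 at 48 h and 20, 14, 7 and 13 at 72 h. In CPM the 24, 48 and 72 h libraries were all above all controls, whereas at 12 h 1 of 4 lay within the control range.

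The log2 fold change of IL11 was 1.47 at 24 h (SE 0.334, adjusted p = 0.000577), 1.17 at 48 h (SE 0.337, adjusted p = 0.0065) and 1.33 at 72 h (SE 0.337, adjusted p = 0.00155). At 12 h it was 0.83 (SE 0.352, adjusted p = 0.0411), and this call did not hold when control replicate 2, control replicate 3, EGF 12 h replicate 1 or EGF 12 h replicate 2 was left out (adjusted p = 0.083, 0.132, 0.181 and 0.0819). It was also lost under library size or upper quartile scaling, without the filter and by DESeq2. No change of IL11 between successive times was called. From 12 to 24 h the log2 difference was 0.65 (adjusted p = 0.085), and it passed the threshold without EGF 12 h replicate 1 (0.88, adjusted p = 0.0391) and under library size or upper quartile scaling. The change from 24 to 48 h was -0.30 (95% interval -0.92 to 0.31).

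**Figure D2:**
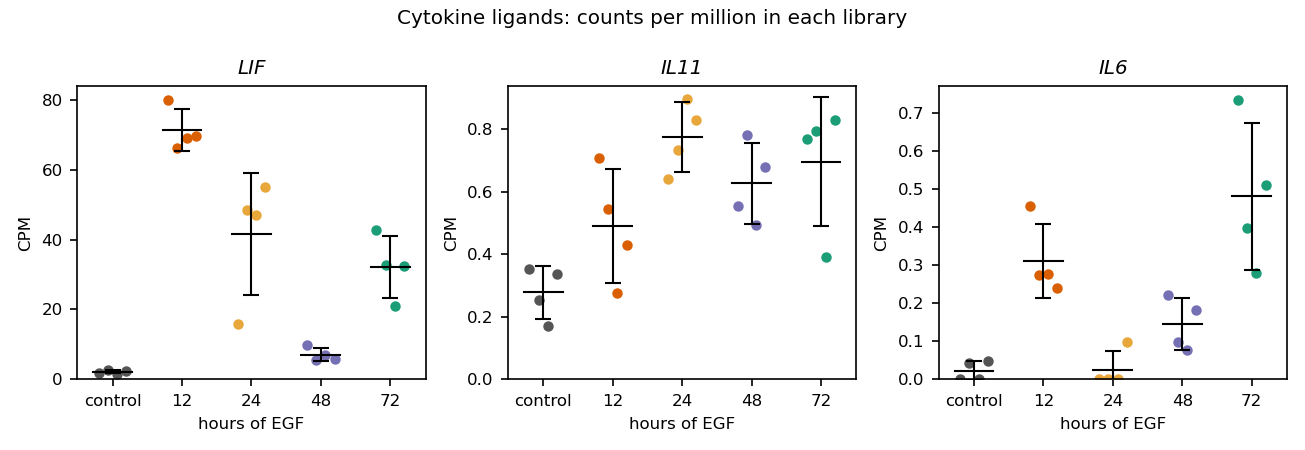
CPM (y axes, linear from 0) of LIF, IL11 and IL6 in each library (points) by hours of EGF (x axes), with group means and SD (lines and bars, n = 4). Among the EGF groups, LIF had its lowest mean at 48 h and IL6 at 24 h, and both were higher again at 72 h. IL11 stayed between 0.391 and 0.898 CPM from 24 h on.

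Upstream sequence is shown for IL6, IL11 and OSMR, which were among the members higher at 12 h whose windows held a motif of those searched. LIFR was another such member and is not printed. The windows are the 250 bases before the RefSeq transcription start on GRCh38.p14, written in the direction of the gene with matches in capitals. Searched on both strands, over the 250 bases before and the 50 after each start, were AP-1 (TGANTCA, in 7.71% of 35116 promoters), STAT (TTCNNNGAA, 7.66%), C/EBP (TTGCNNAA, 10.5%), NF-kB (GGGA, any base, then TTTCC, 0.558%) and CRE (TGACGTCA, 1.85%). None of the matches printed overlap. LIF was not in the promoter table.
IL6, chr7:22726950-22727199, plus strand: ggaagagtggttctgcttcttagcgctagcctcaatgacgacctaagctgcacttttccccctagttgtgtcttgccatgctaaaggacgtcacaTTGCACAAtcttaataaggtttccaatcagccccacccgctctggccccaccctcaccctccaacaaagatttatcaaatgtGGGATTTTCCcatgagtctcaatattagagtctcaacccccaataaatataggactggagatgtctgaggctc
IL11, chr19:55370464-55370713, minus strand: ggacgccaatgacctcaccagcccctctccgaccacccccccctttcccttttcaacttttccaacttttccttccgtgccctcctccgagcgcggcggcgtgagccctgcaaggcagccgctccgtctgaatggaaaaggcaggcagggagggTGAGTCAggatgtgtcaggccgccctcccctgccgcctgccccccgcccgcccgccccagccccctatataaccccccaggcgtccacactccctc
OSMR, chr5:38845762-38846011, plus strand: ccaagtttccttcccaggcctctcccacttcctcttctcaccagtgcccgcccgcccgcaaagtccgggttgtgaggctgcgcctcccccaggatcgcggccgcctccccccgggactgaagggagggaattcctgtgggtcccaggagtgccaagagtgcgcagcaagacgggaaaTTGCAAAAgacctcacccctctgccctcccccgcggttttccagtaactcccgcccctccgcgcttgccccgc

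The IL6 window held a C/EBP match from position -155 to -148 and an NF-kB match from -73 to -64, counted from the start. IL11 held an AP-1 match from -96 to -90 and OSMR a C/EBP match from -73 to -66. AP-1 matches also lay just past the start in OSMR, from 3 to 9, and in IL6R, from 37 to 43. STAT matches were found among the members only at LIFR, upstream of 2 of its 3 starts in the table. Upstream of LIFR start number 2 there was also a C/EBP match from -31 to -24.

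Other ligands and accessory genes of the family were followed as a list of 16 genes, of which 9 had enough counts to be tested. At 12 h, 5 rose and 1 fell, at 24 h, 3 rose and 1 fell, at 48 h, 2 rose and 1 fell, and at 72 h, 2 rose and 3 fell. The shares called were 66.7%, 44.4%, 33.3% and 55.6%, each below that of all tested genes at the same time (69.4%, 58.8%, 45.8% and 61.6%). The median log2 fold change was 0.57 at 12 h and 0.10 at 72 h. CLCF1, a cytokine that acts through CNTFR, LIFR and gp130, went from 1.33 ± 0.363 CPM in control to 52.8 ± 3.61 at 12 h, and held 12.7 ± 2.83, 4.65 ± 0.572 and 12.2 ± 2.39 CPM at 24, 48 and 72 h. Its log2 fold changes were 5.28, 3.22, 1.79 and 3.18 at the 4 times, each called.

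IL11RA, the alpha receptor of IL-11, was called lower at 12, 24 and 72 h, when IL11 was called higher, but not at 48 h. It fell from 2.71 ± 0.649 CPM to 0.952 ± 0.308 at 12 h and 0.718 ± 0.226 at 24 h (adjusted p = 6.14e-05 and 7.58e-06), read 2.97 ± 1.20 CPM at 48 h (adjusted p = 0.737) and was lower again at 72 h (adjusted p = 0.0183). RHBDF2, a partner of the protease ADAM17 that sheds IL6R and EGF receptor ligands, rose 3.93-fold at 12 h, to 41.0 ± 2.42 CPM. OSM, the ligand of OSMR, had no counts in any library. CTF1, IL27, EBI3, IL31, CNTFR and IL31RA stayed at 7 counts or fewer in every library and were not tested.

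OSMR, on chromosome 5 from 38845858 to 38945596 on the plus strand, encodes the oncostatin M receptor chain that pairs with gp130. Controls were at 70.6, 80.9, 78.8 and 77.4 CPM. EGF for 12 h gave 380.8, 406.2, 403.5 and 412.7 CPM, and 24 h gave 208.0, 277.0, 329.6 and 294.1 CPM. The 48 h libraries were at 113.3, 111.9, 117.0 and 113.3 CPM and the 72 h libraries at 200.2, 186.7, 172.0 and 158.6 CPM. None of the 5 groups overlapped another, and the closest were the lowest 24 h and the highest 72 h library.

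OSMR was 5.21-fold higher at 12 h, from 76.9 ± 4.48 to 400.8 ± 13.9 CPM (SD, n = 4), or 2.38 on the log2 scale (SE 0.0998, adjusted p = 7.99e-16). At 24 h the log2 fold change was 1.85 (SE 0.0983) and without replicate 1 it was 1.97 (SE 0.0757). The value was 0.57 at 48 h (SE 0.0965, adjusted p = 4.07e-05) and 1.22 at 72 h (SE 0.0971, adjusted p = 1.18e-10). Each step in time was called, with log2 differences of -0.53, -1.28 and 0.66, but with the factors recovered from the deposited normalized values the first was -0.17 (adjusted p = 0.242). A share of 3.19% of OSMR exon sequence also lies in exons of RICTOR, which runs antisense to it.

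IL6R, on chromosome 1 from 154405193 to 154469450 on the plus strand, encodes the alpha receptor for IL-6. It was near the limit of detection in control, with 5, 1, 5 and 2 counts. There were 65, 58, 67 and 82 counts at 12 h and 29, 26, 26 and 30 at 24 h. At 48 h the counts were 24, 22, 47 and 24, and at 72 h they were 141, 72, 74 and 63. Every EGF library was above every control, in the order 48 and 24 h, then 12 h, then 72 h.

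On the log2 scale IL6R rose by 4.51 at 12 h (SE 0.284, adjusted p = 1.28e-12), 3.29 at 24 h (SE 0.310, adjusted p = 2.92e-09), 3.11 at 48 h (SE 0.311, adjusted p = 1.57e-08) and 4.85 at 72 h (SE 0.279, adjusted p = 3.01e-13). Over only 13 control counts, the ratio of rates was 23.8 at 12 h (95% exact interval 13.7 to 45.4) and 30.7 at 72 h (17.7 to 58.3). IL6R peaked at 72 h by its mean, at 4.42 ± 0.677 CPM against 3.52 ± 0.356 CPM at 12 h, and all 72 h libraries were above all 12 h libraries, but the test did not separate the times (log2 difference 0.34, 95% interval -0.05 to 0.72, adjusted p = 0.114). Scaling by library size or upper quartiles, or fitting only these 8 libraries, put that difference under the threshold (adjusted p = 0.0144, 0.027 and 0.0279).

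LIFR, on chromosome 5 from 38474963 to 38608354 on the minus strand, encodes the chain that pairs with gp130 to receive LIF. In control it read 20.8, 21.3, 26.5 and 25.7 CPM. The 12 h libraries read 34.0, 32.3, 33.6 and 34.4 CPM and the 24 h libraries 24.0, 24.7, 24.2 and 28.1 CPM. Levels were 17.2, 13.6, 18.1 and 18.9 CPM at 48 h and 16.0, 18.4, 17.3 and 15.2 CPM at 72 h. All libraries were above all controls at 12 h and below all controls at 48 and 72 h.

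LIFR thus changed sides, at 0.51 on the log2 scale at 12 h (SE 0.0966, adjusted p = 5.73e-05), -0.47 at 48 h (SE 0.0989, adjusted p = 0.00042) and -0.50 at 72 h (SE 0.0998, adjusted p = 0.000148). At 24 h it was 0.10 (95% interval -0.10 to 0.30). Compared directly, 48 h differed from 12 h by -0.98 (SE 0.0985, adjusted p = 5.45e-09) and 72 h by -1.01 (SE 0.0994, adjusted p = 5.47e-09), and both differences were called under every alternative run. With factors recovered from the deposited normalized values the changes against control were 0.29, -0.52 and -0.38 at 12, 48 and 72 h and none passed the threshold (adjusted p = 0.26, 0.0827 and 0.167). While LIF stood 15.4-fold above control at 72 h, LIFR was at 0.709 of its control level.

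IL6ST, on chromosome 5 from 55935095 to 55994993 on the minus strand, encodes gp130 itself and was the steadiest of the receptor chains. It held 143.6, 131.0, 188.2 and 150.5 CPM in control and 183.5, 187.8, 211.6 and 197.9 CPM at 12 h. The 24 h libraries had 132.7, 138.5, 144.3 and 148.6 CPM and the 48 h libraries 128.2, 105.2, 164.1 and 159.5 CPM. At 72 h the values were 133.7, 150.6, 137.8 and 130.4 CPM. Groups overlapped the controls at every time, and at 12 h control replicate 3 was above 2 of the EGF libraries.

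IL6ST was higher by 0.35 on the log2 scale at 12 h (SE 0.112, adjusted p = 0.00817), a call that was not kept with scaling by library size (0.06, adjusted p = 0.619) or upper quartiles (0.19, adjusted p = 0.0908). At 24, 48 and 72 h the log2 fold changes were -0.12, -0.14 and -0.15, with 95% intervals of -0.35 to 0.11, -0.37 to 0.09 and -0.38 to 0.08. The fall from 12 to 24 h was -0.47 (adjusted p = 0.0012), and all 4 libraries at 24 h were below all 4 at 12 h.

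**Figure D3:**
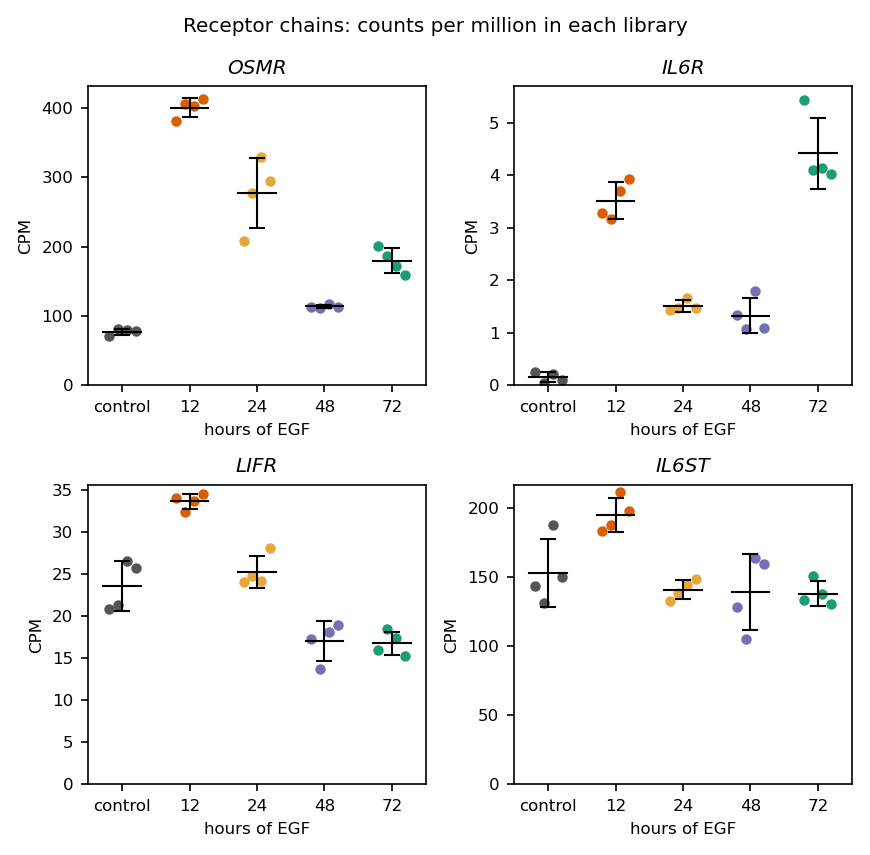
CPM (y axes, linear from 0) of the receptor chains OSMR, IL6R, LIFR and IL6ST in each library (points) by hours of EGF (x axes), with group means and SD (lines and bars, n = 4). OSMR was highest at 12 h, IL6R reached 5.43 CPM in 1 library at 72 h, LIFR ended below control and IL6ST overlapped control throughout.

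STAT3, on chromosome 17 from 42313324 to 42388568 on the minus strand, encodes the transcription factor on which these receptors converge. Controls were at 114.5, 140.9, 111.9 and 128.3 CPM. At 12 h STAT3 read 157.9, 161.3, 162.8 and 170.5 CPM, and at 24 h 109.1, 116.3, 111.7 and 112.6 CPM. After 48 h it read 141.5, 150.4, 127.7 and 120.3 CPM and after 72 h 104.3, 96.7, 109.5 and 105.6 CPM. All 12 h libraries were above and all 72 h libraries below all controls, while 24 and 48 h overlapped control.

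The log2 fold change of STAT3 was 0.40 at 12 h (SE 0.0749, adjusted p = 5.55e-05) and -0.25 at 72 h (SE 0.0753, adjusted p = 0.00572). It was -0.14 at 24 h (adjusted p = 0.112) and 0.12 at 48 h (adjusted p = 0.187), and these values passed the threshold without control replicate 3 (adjusted p = 0.0407) and without control replicate 2 (adjusted p = 0.0346), respectively. Scaling by library size alone gave 0.11 at 12 h (adjusted p = 0.198). In the direct comparison 72 h differed from 12 h by -0.65 (SE 0.0754, adjusted p = 7.45e-08). STAT3 fell by 0.54 from 12 to 24 h, rose by 0.26 from 24 to 48 h and fell by 0.38 from 48 to 72 h, each called and each without overlap between groups. With the factors recovered from the deposited normalized values, the rise from 24 to 48 h was 0.18 and no longer called (adjusted p = 0.0932). Of the 8 tested members, only STAT3 was called higher between 24 and 48 h, and only STAT3 was called lower between 48 and 72 h.

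SOCS3, on chromosome 17 from 78356778 to 78360077 on the minus strand, encodes the inhibitor that binds gp130 and the Janus kinases. It read 3.21, 3.36, 2.99 and 2.88 CPM in control and 41.6, 32.0, 41.2 and 30.9 CPM at 12 h. At 24 h it was back at 4.05, 5.20, 4.10 and 5.32 CPM. The last times gave 3.49, 4.65, 3.87 and 3.81 CPM at 48 h and 4.32, 3.13, 3.35 and 3.96 CPM at 72 h. The 12 h libraries stood far above all others, and the 24 and 48 h libraries were all slightly above all controls.

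SOCS3 was upregulated 11.7-fold at 12 h, or 3.55 on the log2 scale (SE 0.134, adjusted p = 1.18e-16). At 24 h the log2 fold change was 0.59 (SE 0.146, adjusted p = 0.00138). It was 0.35 at 48 h (SE 0.146, adjusted p = 0.0572) and 0.25 at 72 h (SE 0.149, adjusted p = 0.146). The 48 h value passed the threshold without EGF 48 h replicate 1 (adjusted p = 0.0452), with library size scaling and with the stricter count filter. From 12 to 24 h SOCS3 fell by 2.96 (SE 0.130, adjusted p = 6.75e-14), the steepest fall of the 8 members over that step. LIF and OSMR rose again from 48 to 72 h while SOCS3 changed by -0.09 (95% interval -0.39 to 0.21).

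**Figure D4:**
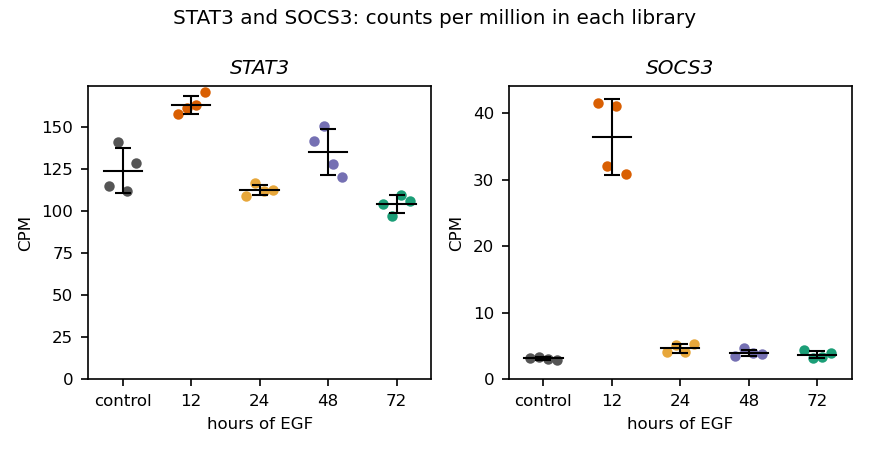
CPM (y axes, linear from 0) of STAT3 and SOCS3 in each library (points) by hours of EGF (x axes), with group means and SD (lines and bars, n = 4). SOCS3 was at 36.4 ± 5.74 CPM at 12 h and at most at 5.32 CPM in the libraries of the other groups, and STAT3 fell below all controls at 72 h.

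The kinases, other STATs, SOCS proteins and phosphatases of the pathway formed a list of 24 genes, all tested. At 12 h, 15 rose and 3 fell, with a median log2 fold change of 0.35. At 24 h, 10 rose and 2 fell, at 48 h, 9 rose and 6 fell, and at 72 h, 11 rose and 4 fell, with medians of 0.20, 0.06 and 0.14. The share called was 75.0%, 50.0%, 62.5% and 62.5% at 12, 24, 48 and 72 h, beside 69.4%, 58.8%, 45.8% and 61.6% of all genes. At 48 h the number called was 7 of 23 when only the 8 libraries compared were fitted. STAT4, counted as rising at 48 and 72 h, had means of 0.273 CPM in control, 0.710 at 48 h and 1.56 at 72 h. With so few control counts, its rise may to some extent be built into the low-count filter.

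SOCS2, an inhibitor best known from growth hormone signalling, had the largest change of the list. It rose from 2.49 ± 0.601 CPM to 80.1 ± 1.20 at 12 h and remained at 74.2 ± 12.7 CPM at 24 h, when SOCS3 was at 4.67 ± 0.684 CPM. At 48 and 72 h SOCS2 was still 7.21-fold and 14.8-fold above control (adjusted p = 1.26e-13 and 8.41e-17). SOCS1, which blocks Janus kinases directly, rose 2.09-fold at 12 h (adjusted p = 0.00452) and at 48 h was lower than control, at 0.548 ± 0.270 against 2.02 ± 0.445 CPM (adjusted p = 0.000311). STAT5B, a related STAT, rose from 18.4 ± 1.31 to 38.7 ± 1.57 CPM at 12 h and was higher at all 4 times. SOCS6 was 1.85-fold higher at 12 h and 1.74-fold at 24 h, and at 48 h read 29.1 ± 3.58 against 28.6 ± 2.91 CPM in control.

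Known targets of STAT3 and acute-phase genes made up a list of 30, of which 23 were tested. At 12 h, 14 rose and 7 fell, and by 24 h, 9 rose and 10 fell. At 48 h, 8 rose and 8 fell, and at 72 h, 9 rose and 7 fell. The shares called were 91.3%, 82.6%, 69.6% and 69.6%, beside 69.4%, 58.8%, 45.8% and 61.6% of all genes. The median log2 fold change was 0.75 at 12 h and 0.09, 0.19 and 0.08 at the later times. The list thus held genes that moved in opposite directions.

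SERPINA1, which encodes the protease inhibitor alpha-1 antitrypsin, rose without a fall in between, from 2.96 ± 0.608 CPM to 14.3 ± 0.938, 19.1 ± 0.297, 30.6 ± 0.924 and 50.7 ± 1.97 CPM at 12, 24, 48 and 72 h. CP, the gene of the copper carrier ceruloplasmin, fell from 57.0 ± 6.22 CPM to 24.8 ± 3.08 at 12 h and 3.90 ± 0.144 at 72 h. FGG, the fibrinogen gamma chain, fell from 7.01 ± 0.588 CPM to 0.490 ± 0.137 at 72 h. BCL6, a transcriptional repressor, was at 4.41 ± 0.664 CPM at 12 h against 53.1 ± 5.63 in control, and at 48 and 72 h it no longer differed from control by the test (adjusted p = 0.164 and 0.0545). At 24 h BCL6 read 18.4 to 38.7 CPM across libraries.

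RNA-binding proteins that act on AU-rich and related elements formed a list of 12, all tested. At 12 h, 8 rose and 3 fell, and at 48 h, 2 rose and 8 fell, with median log2 fold changes of 0.27 and -0.39. At 24 h, 3 rose and 4 fell, and at 72 h, 4 rose and 6 fell. Called were 91.7%, 58.3%, 83.3% and 83.3% of the list at the 4 times, beside 69.4%, 58.8%, 45.8% and 61.6% of all genes. Scaling by library size alone left 7 called at 12 h. ZFP36L2, a decay factor of the tristetraprolin family, rose from 190.2 ± 18.1 to 1215 ± 12.2 CPM at 12 h and stood at 529.2 ± 127.3, 241.2 ± 9.98 and 367.9 ± 31.6 CPM at 24, 48 and 72 h. The low 24 h library was again part of that spread, with 343.3 CPM as the lowest value. ZFP36, or tristetraprolin itself, rose 4.07-fold at 12 h to 137.8 ± 3.40 CPM and was 1.38-fold above control at 24 h and level with it at 48 h (0.998-fold).

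AUH, an AU-binding protein that also works as a mitochondrial enzyme, was lower at all 4 times, at 8.76 ± 1.09 CPM at 12 h against 17.1 ± 4.53 CPM in control. HNRNPD, which encodes the AU-rich element binding protein AUF1, was called lower at 48 and 72 h, with log2 fold changes of -0.89 and -0.77. The control libraries of HNRNPD ranged from 122.8 to 232.4 CPM.

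Divided by exon length, the levels of the members can be compared with one another. In control the order of means was IL6ST at 16.5, STAT3 at 14.1, OSMR at 10.7, LIFR at 1.99, SOCS3 at 1.14, LIF at 0.529, IL11 at 0.104, IL6R at 0.0234 and IL6 at 0.0109 CPM per kb. IL6ST and STAT3 overlapped, as did IL6R and IL6, and all other neighbours were separate in all libraries. At 12 h OSMR led with 55.9 ± 1.93 CPM per kb, followed by IL6ST at 21.0, and LIF at 18.0 ± 1.52 overlapped STAT3 at 18.5 ± 0.608.

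OSMR also led at 24 h with 38.6 ± 7.12 and at 72 h with 25.0 ± 2.51 CPM per kb, while at 48 h OSMR, STAT3 and IL6ST overlapped at 15.9, 15.3 and 15.0. LIF was in the same range as SOCS3 and LIFR at 48 h, at 1.76 ± 0.488 CPM per kb. The ratio of LIFR to OSMR per kb fell from 0.185 ± 0.0209 in control to 0.0507 ± 0.00244 at 12 h and was 0.0566 ± 0.00575 at 72 h. The alpha receptor IL6R reached at most 0.842 CPM per kb in any library, and IL6 had the lowest mean in each group.

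**Figure D5:**
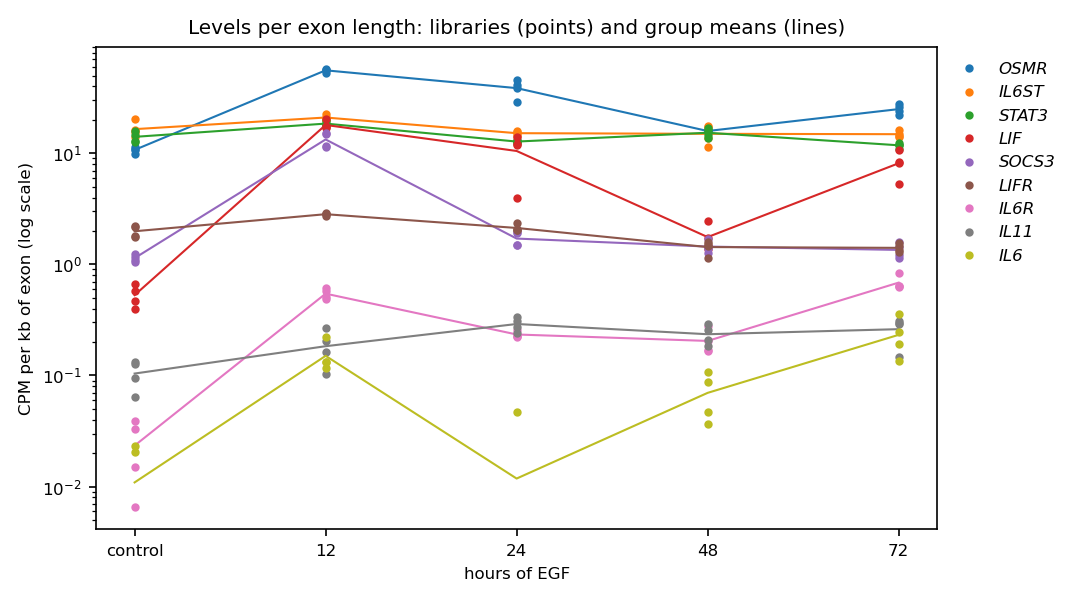
CPM per kb of exon (y axis, log scale) of all 9 members in each library (points, values of 0 not drawn) and as group means (lines) by hours of EGF (x axis). OSMR, IL6ST and STAT3 stayed at or above 9.84 CPM per kb in all libraries, and LIF rose from 0.529 in control to 18.0 at 12 h.

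For each tested member with a mean of at least 1 CPM, the genes with the most similar course were sought among 13881 others by Pearson correlation of log2 CPM over the 20 libraries, which share the 5 groups and so are not independent points. LIF was most like SPRY4 (r = 0.990), MAST4 (0.989) and DUSP7 (0.988), of which SPRY4 and DUSP7 encode inhibitors of ERK signalling. DUSP7 had mean levels of 6.49, 60.2, 37.0, 11.8 and 29.7 CPM in control and at 12, 24, 48 and 72 h. OSMR was most like the RNA-binding protein IGF2BP2 (0.994), the EGF receptor inhibitor ERRFI1 (0.992) and SEC14L1 (0.991).

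The nearest genes to SOCS3 were SFN (0.983), SNHG15 (0.976) and BYSL (0.974), and SFN, or 14-3-3 sigma, went from 246.0 to 941.7 CPM at 12 h and 313.4 CPM at 24 h. IL6R was nearest to LIPH (0.980), STC2 (0.979) and SEC23B (0.976). LIFR resembled PHACTR2 (0.969) and TFDP1 (0.968), IL6ST resembled NCOA7 (0.949), ZNF148 (0.946) and TRAM1 (0.945), and STAT3 resembled MFGE8 (0.925) and BZW2 (0.923). In EGF 24 h replicate 1 all 3 genes like LIF and all 3 like OSMR were below the other 24 h libraries, with SPRY4 at 30.2 CPM against 47.0 to 52.8 CPM. That library was itself part of the correlations that picked these genes.

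Among the members themselves the highest correlation over the 20 libraries was between LIF and OSMR (r = 0.956), followed by LIF and IL6R (0.847) and IL6ST and LIFR (0.797). SOCS3 and STAT3 had r = 0.756. The lowest was between IL11 and IL6ST (-0.41), and LIFR and IL6R were near 0 (-0.0072). LIF and OSMR thus followed one course, high at 12 h, low at 48 h and higher at 72 h. IL6R also was lower at 48 h than at 12 and 72 h, with its highest mean, 4.42 CPM, at 72 h. LIFR was below control at 72 h.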

How the data were processed

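RNA of MDA-MB-468 cells was sequenced in 20 libraries, 4 in each of 5 groups. The authors deposited 10 tables, 1 per comparison, with the same whole-number counts per gene, which are not normalized and were used here, and with normalized values. The authors made this second column, a score for each gene in each library, with DESeq2. The ratio of score to count is not the same for all genes of a library, and the scores served only for 1 alternative scaling. Columns of fold changes and p-values of the authors' comparisons were not used. The submitters' processing notes name hg38 and DESeq2. The aligner, counter, annotation and strand setting are not given in the sources used here, so reads from overlapping antisense genes cannot be told apart.

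Genes were filtered with filterByExpr and scaled by TMM, and 1 model with a mean per group was fitted to all 20 libraries with edgeR 4.0.16 (limma 3.58.1, R 4.3.3). Comparisons used its quasi-likelihood test in robust form, with p-values adjusted by Benjamini-Hochberg over 16522 genes. A gene is called at an adjusted p under 0.05. Fold changes used a prior count of 0.125 and correlations a prior count of 2. The SE of a log2 fold change was computed as its absolute value over the square root of the test's F statistic. Its 95% interval is the fold change plus or minus the SE times a t quantile. CPM scales counts by the library total times its TMM factor, and CPM per kb divides it by the merged exon length in GENCODE 29. IL6 failed the filter and was tested by a two-sided exact permutation test. Dixon's 95% value for 4 samples is 0.829. The procedure was tested on simulated data.

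Depth was 15611961 to 25856953 counts, so genes under 1 CPM rest on few counts. Replicates are labelled biological, and p-values measure the spread between these wells. Alternatives were library size, upper quartile and DESeq2 1.42.0 size factor scaling, factors from the deposited scores (11956 genes whose counts never fell under 20), the DESeq2 Wald test, no low-count filter, a stricter filter of 10 counts per library, fits of just the 8 libraries in a comparison, a replicate block, 2 as the prior count, and fits without each replicate in turn. Members and lists were chosen with earlier results of these data known. Named are all members, from each list the 4 genes with the largest change against control among those called, with a mean of at least 1 CPM and no overlap between groups, and the 3 genes most correlated with each member. Some genes that this rule names are not reported here. Markers, ERRFI1 in its single libraries and the untested list genes were named after their values were seen. Comparing 48 or 72 h with 12 h, and 72 h with 24 h, was added after the data were seen.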

Additional observations from a re-analysis of the deposited data

Results flagged for a closer look

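Within groups of 4 libraries, 4 of 45 group values of the members held a library beyond Dixon's 95% limit, where chance gives about 1 in 20 groups. IL6 in EGF 24 h replicate 4 read 0.0976 CPM, from 2 counts, while the other replicates had none. IL11 in EGF 72 h replicate 3 read 0.391 CPM against 0.771 to 0.830 CPM in the others. IL6R in EGF 24 h replicate 3 read 1.67 CPM against 1.43 to 1.47 CPM, and in EGF 72 h replicate 1 it read 5.43 CPM against 4.02 to 4.13 CPM. The low LIF value of EGF 24 h replicate 1 did not pass this limit.

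LIFR and STAT3 had effects of opposite sign at different times, and the difference itself was tested in the edgeR model. LIFR changed by -0.98 between 12 and 48 h and by -1.01 between 12 and 72 h on the log2 scale. STAT3 changed by -0.65 between 12 and 72 h.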

How the results depend on the processing

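Of 758 values of the members' log2 fold changes recomputed under other settings, 710 kept their direction and their side of the threshold, 22 lost the call, 9 gained it and 17 changed sign, and of the 17 only STAT3 at 48 against 12 h was a called change. The cause of the changes below was not tested unless stated.

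Library size scaling shifted the median log2 fold change of all genes by -0.28 at 12 h and -0.14 at 24 h against control, by 0.14 for 24 against 12 h and by 0.15 for 48 against 24 h, and the share of calls that were higher was 30.2% (47.4% in the report's scaling), 36.3% (49.6%), 68.6% (51.9%) and 71.8% (51.5%) there and 33.8% (50.0%) for 72 against 48 h. Upper quartiles shifted the median by -0.16 at 12 h and 0.12 for 24 against 12 h, with 37.2% and 66.1% higher, and deposited factors by 0.12 and -0.12, with 55.3% and 39.2% higher. Under library size scaling 5 members were called at 12 h and 7 genes of the decay list, and LIFR at 24 h was -0.044, IL6ST 0.14 at 48 against 24 h and 0.038 at 72 against 24 h, and STAT3 0.021 at 48 against 12 h.

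With deposited factors, which cover 6 members and fewer genes, 5, 3, 2 and 3 members were called at 12, 24, 48 and 72 h, 4 for 24 against 12 h and 2 for 48 against 24 h. All genes called were then 6336, 4334 and 6559 at 24, 48 and 72 h, and 5835, 4993 and 3209 for the successive steps. The family list had 3 called at 72 h, the JAK-STAT list 8 at 48 h and 7 at 72 h, and the decay list 6 at 72 h. IL6ST was 0.024 at 48 h, 0.11 at 72 h, 0.033 at 48 against 24 h, 0.086 at 72 against 48 h and 0.12 at 72 against 24 h, and LIFR was 0.14 at 72 against 48 h. A filter of 10 counts in every library, which removes IL6R and IL11, left 3 members called at 24 h and gave IL6ST as 0.017, 0.0046 and 0.022 for 48 against 24, 72 against 48 and 72 against 24 h. IL6ST was 0.042 for 48 against 24 h with upper quartiles, and for 72 against 48 h 0.0081 with DESeq2 size factors and 0.0085 by the DESeq2 Wald test. Fitting only the 8 libraries, 7 JAK-STAT genes were called at 48 h.

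Leaving out single replicates turned the sign of IL6ST for 48 against 24 h (-0.11 to 0.094) and 72 against 48 h (-0.13 to 0.076), of LIFR for 72 against 48 h (-0.12 to 0.031) and of IL11 for 72 against 24 h (-0.23 to 0.043), none a called change. Counts of calls stayed within 1.5 times in all 240 of these fits.

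Replicate numbers did not pair the samples: deviations of same-numbered libraries correlated between -0.24 and 0.35, with a median of 0.0092 over 40 pairs of libraries. With the number as a replicate block, 108 of 110 results kept their side, IL6ST for 72 against 48 h was 0.0059, and LIF for 24 against 12 h was no longer called (adjusted p = 0.052). Depth limits IL6, IL11 and the control values of IL6R, whose counts were at most 19, 20 and 5 per library.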
